A study of Mus musculus with 18 samples.

Results

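Gangliosides are glycolipids of the cell surface that carry sialic acid and are abundant in neurons. The 10 genes described here encode enzymes that build them: Ugcg, B4galt5, B4galt6, St3gal5, B4galnt1, St8sia1, St8sia5, B3galt4, St3gal2 and St6galnac4. They were chosen by name, in the order of the pathway from glucosylceramide, out of 34620 genes listed in the count files, and all 10 had enough reads to be tested. RNA-Seq was performed on ventral dentate gyrus, microdissected to take the granule cell layer, from adult male Swiss Webster mice of 8 to 12 weeks. There were 6 libraries, 2 each from WT, F1 and F2 males. F1 males were WT sons whose mothers carried 1 intact copy of the serotonin 1A receptor gene (5HT1A-/+ in the labels). The study bred F1 from heterozygous parents, so the fathers of F1 males carried 1 intact copy as well. F2 males were sons of F1 females and WT males, so that the grandmother carried the 5HT1A-/+ genotype and the mother did not. WT males had WT mothers and WT grandmothers and came from a separate WT line. All 3 groups were thus WT themselves and differed by maternal line, and F1 differed also by the genotype of the father. How many animals were pooled in a library is not given in the sources used here, so p-values measure the spread between libraries, which may in part be technical.

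Synthesis starts when Ugcg, glucosylceramide synthase, attaches glucose to ceramide. B4galt5 and B4galt6 add galactose to form lactosylceramide, and St3gal5 adds the first sialic acid to form GM3, the parent of most brain gangliosides. At GM3 the pathway forks. B4galnt1 leads to the a-series, and St8sia1 adds another sialic acid to form GD3, the parent of the b-series. B3galt4 and St3gal2 then lengthen and sialylate the chains of both series, and St8sia5 and St6galnac4 add further sialic acids. St6galnac4 and St3gal2 also act on glycoproteins.

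The promoters of St6galnac4 and St8sia1, the genes with the largest fold change in F1 and in F2 respectively, are shown for orientation, as the 250 bases before the RefSeq start (build GRCm38.p6). St8sia1 lies at chr6:142964453-142964702 on the minus strand and St6galnac4 at chr2:32586828-32587077 on the plus strand. Capitals mark GC boxes, GGGCGG on either strand.
St8sia1: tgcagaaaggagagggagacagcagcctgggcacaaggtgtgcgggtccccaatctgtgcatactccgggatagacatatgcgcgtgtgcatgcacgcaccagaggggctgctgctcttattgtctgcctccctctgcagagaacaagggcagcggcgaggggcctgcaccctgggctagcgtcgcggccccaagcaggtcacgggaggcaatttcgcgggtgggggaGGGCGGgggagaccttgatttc
St6galnac4: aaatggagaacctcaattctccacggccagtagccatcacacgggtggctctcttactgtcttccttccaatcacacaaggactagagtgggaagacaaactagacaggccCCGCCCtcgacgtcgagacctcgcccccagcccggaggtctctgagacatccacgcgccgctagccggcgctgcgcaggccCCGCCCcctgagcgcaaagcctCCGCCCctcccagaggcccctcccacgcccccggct
St8sia1 held 1 GC box and 14 CpG dinucleotides in this window, and St6galnac4 held 3 and 19. RefSeq promoters were examined for 6 of the 10 genes. All 6 windows held a GC box, against 32.7% of 32851 mouse promoters of the same length. Promoters of the other enzyme genes were not examined here, so these counts describe the 6 windows only. B4galt5 had 7 GC boxes, counting boxes that overlap each other. The CCAAT box (CCAAT) was present in St3gal5, St8sia1 and St6galnac4, against 33.8% of all promoters. The TATA box (TATAAA, in 12.4% of promoters) and the cAMP response element (TGACGTCA, in 1.55%) were not in any of the 6 windows. Such matches describe letters only and are no evidence of binding.

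Levels of different genes were compared as CPM (read counts scaled to a common library size with TMM factors) divided by the length of annotated exons in kb. In WT, St3gal5 had the highest level of the 10 genes, at 50.5 ± 4.36 CPM per kb (SD, n = 2). B4galt6 followed at 34.7 ± 0.667 and B4galnt1 at 21.8 ± 3.46 CPM per kb. St3gal2, Ugcg and B4galt5 came next with WT means of 15.3, 14.9 and 14.2 CPM per kb, and their WT libraries overlapped, so their order is not resolved. St8sia5 was at 10.3 ± 0.583 and St6galnac4 at 3.68 ± 0.792 CPM per kb. St8sia1, at 2.66 ± 0.0570, and B3galt4, at 2.57 ± 0.670 CPM per kb, were lowest and overlapped. St3gal5, which makes GM3, was therefore more abundant as mRNA than St8sia1, which carries GM3 on to GD3. The size of this gap depends on the exon lengths used, 2.448 kb for St3gal5 and 9.204 kb for St8sia1. Before division by length, their WT means were 124 and 24.5 CPM. The order of the means per kb was the same in F2. In F1, St8sia5 ranked above B4galt5, where the libraries of this pair overlapped.

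**Figure D1:**
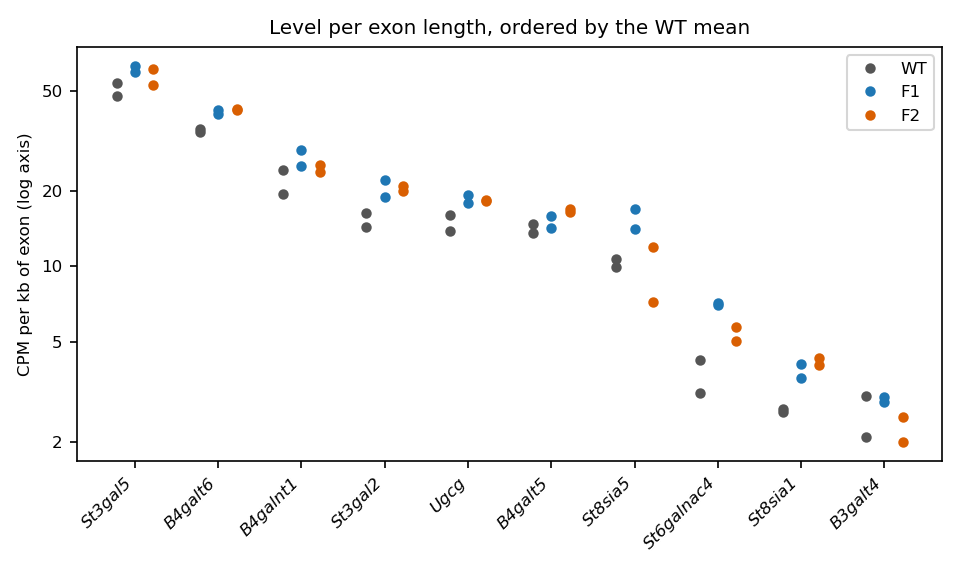
Level of each gene in CPM per kb of annotated exon (log axis), 1 point per library, with genes ordered by the WT mean. St3gal5 ranges from 47.4 to 62.8 over the 6 libraries, and B3galt4 from 1.99 to 3.04.

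Gene expression was then compared between the groups, to ask whether prior maternal environment is associated with expression of these enzymes. In F1, 3 of the 10 genes were higher than in WT in edgeR's exact test (St8sia1, St3gal2 and St6galnac4), and 0 were lower, with q, the adjusted p, required to be under 0.01. Of all 17421 tested genes, 12.3% passed in F1, 3.77% upward and 8.54% downward. In F2, 1 of the 10 genes (St8sia1) was higher and 0 were lower, where 12% of all tested genes passed, 3.86% upward and 8.1% downward. St8sia1 was thus 1 of 10 genes to rise in both, against 1.6% of all tested genes. The study lists St8sia1 and St6galnac4 among genes it found changed in both F1 and F2 in these same libraries. The enzymes were also chosen with earlier results of these data known, so these counts are a description and not independent evidence. At q under 0.05 there were 4 genes in F1 (St8sia5 added) and 3 in F2, all higher, against 8.08% and 8.21% of all tested genes. At an unadjusted p under 0.05, 8 of the 10 genes in F1 and 5 in F2 passed, against 32.6% and 32.4% of all tested genes. All 10 genes had fold changes above 1 in F1 and 8 of 10 in F2, compared with 50.9% and 50% of all tested genes. The median log2 fold change of the 10 genes was 0.31 in F1 and 0.26 in F2, beside 0.0094 and -0.00035 over all tested genes. Both F1 libraries lay above both WT libraries for 8 of the 10 genes (29.8% of all tested genes), and both F2 libraries for 6 (31%). For 5 genes, Ugcg, B4galt6, St8sia1, St3gal2 and St6galnac4, all 4 F1 and F2 libraries lay above both WT libraries, as for 21% of all tested genes. The same WT libraries serve both comparisons, so they are not independent. By edgeR's quasi-likelihood test, the counts at q under 0.01 were 1 in F1 (St6galnac4) and 1 in F2 (St8sia1), against 5.91% and 5.72% of all tested genes. Without WT replicate 1, WT replicate 2 or F1 replicate 2, the exact test called 1 gene in F1. In F2 it called 0 genes without F2 replicate 1, 2 without WT replicate 1, and 3 without F1 replicate 1 or F1 replicate 2. Between F2 and F1, 0 of the 10 genes passed at q under 0.01, whether by the exact or quasi-likelihood test of edgeR (0.74% and 0.0115% of all tested genes) or by DESeq2. At an unadjusted p under 0.05 by the exact test, 2 passed (St8sia5 and St6galnac4), against 8.64% of all tested genes.

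**Figure D2:**
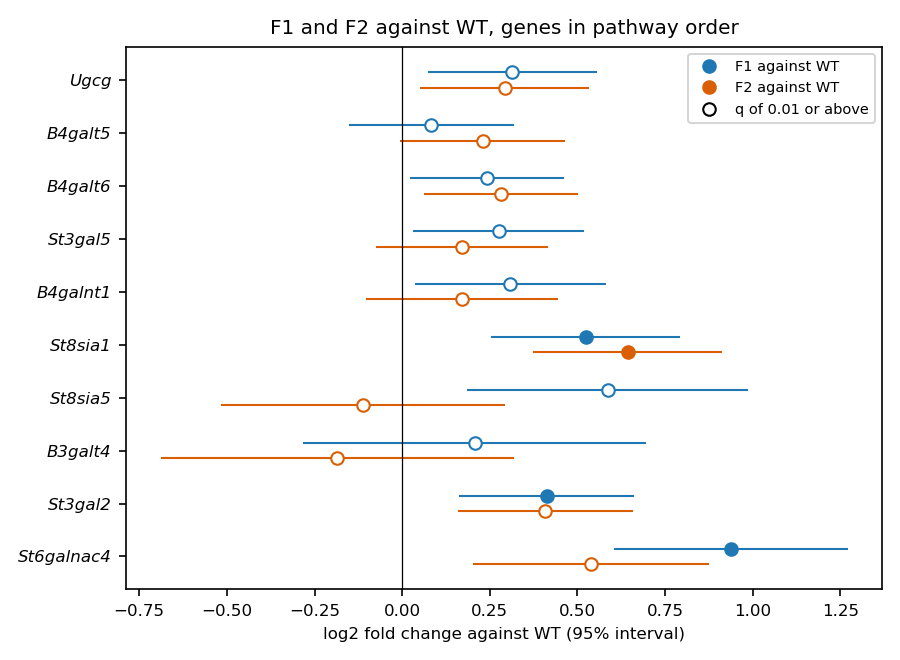
Log2 fold change of F1 (blue) and F2 (orange) against WT for each gene in pathway order, with 95% intervals from the tagwise dispersion. Filled points have q under 0.01 by the exact test. St8sia1 is filled in both comparisons, at 0.52 and 0.64, and St8sia5 and B3galt4 lie below 0 in F2.

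These libraries are tissue, in which fewer cells of a type and less RNA per cell cannot be told apart. The sums of 4 lists of non-neuronal markers, like the enzyme sum, were higher in every F1 and F2 library than in WT. The granule neuron markers were abundant: Prox1, which specifies dentate granule cells, was at 228 to 345 CPM, and the summed CPM of 6 granule markers was 1131 and 1154 in WT, 945 and 1151 in F1, and 1464 and 1276 in F2. The 6 astrocyte markers summed to 1215 and 1274 CPM in WT, 1462 and 1793 in F1, and 1989 and 1620 in F2. The 6 microglia markers summed to 95.8 and 91.6 CPM in WT and to between 114 and 144 in F1 and F2. The 4 endothelial markers summed to between 66.1 and 70.2 CPM in WT and between 72.3 and 92.1 in F1 and F2. The 3 markers of oligodendrocyte precursors summed to 45.8 and 52.6 CPM in WT and to between 74.7 and 84.5 in F1 and F2. In these 4 lists, every F1 and F2 library was above both WT libraries. The 10 oligodendrocyte markers varied more within groups, from 1136 and 2062 CPM in WT to 3103 and 2328 in F1 and 1604 and 3013 in F2. At q under 0.01 by the exact test, 4 oligodendrocyte, 2 precursor and 1 astrocyte markers rose in F1, beside 3.77% of all tested genes that rose. In F2, 2 oligodendrocyte, 1 precursor, 4 astrocyte, 4 microglia and 1 endothelial markers rose, beside 3.86% of all tested genes that rose. Fewer of these calls held by the quasi-likelihood test, in F1 only that of Gpr17, a precursor marker (edgeR q = 0.000991). Those that held in F2 were Pdgfra (precursor), Aldh1l1 (astrocyte) and Pecam1 (endothelial), at edgeR q = 0.00501, 0.00858 and 0.00628. Of the granule markers, 1 fell in F1 and 1 in F2, and in the other lists 0 fell. No marker was at 0 in any library. The 5 interneuron markers, of which 1 rose in F2, summed to 565 and 631 CPM in WT, 758 and 547 in F1, and 640 and 707 in F2. The 4 markers of CA and mossy neurons, of which 0 passed, summed to 174 to 309 CPM, and F1 and F2 overlapped WT. The part of these cells in the differences of the enzymes was not tested.

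**Figure D3:**
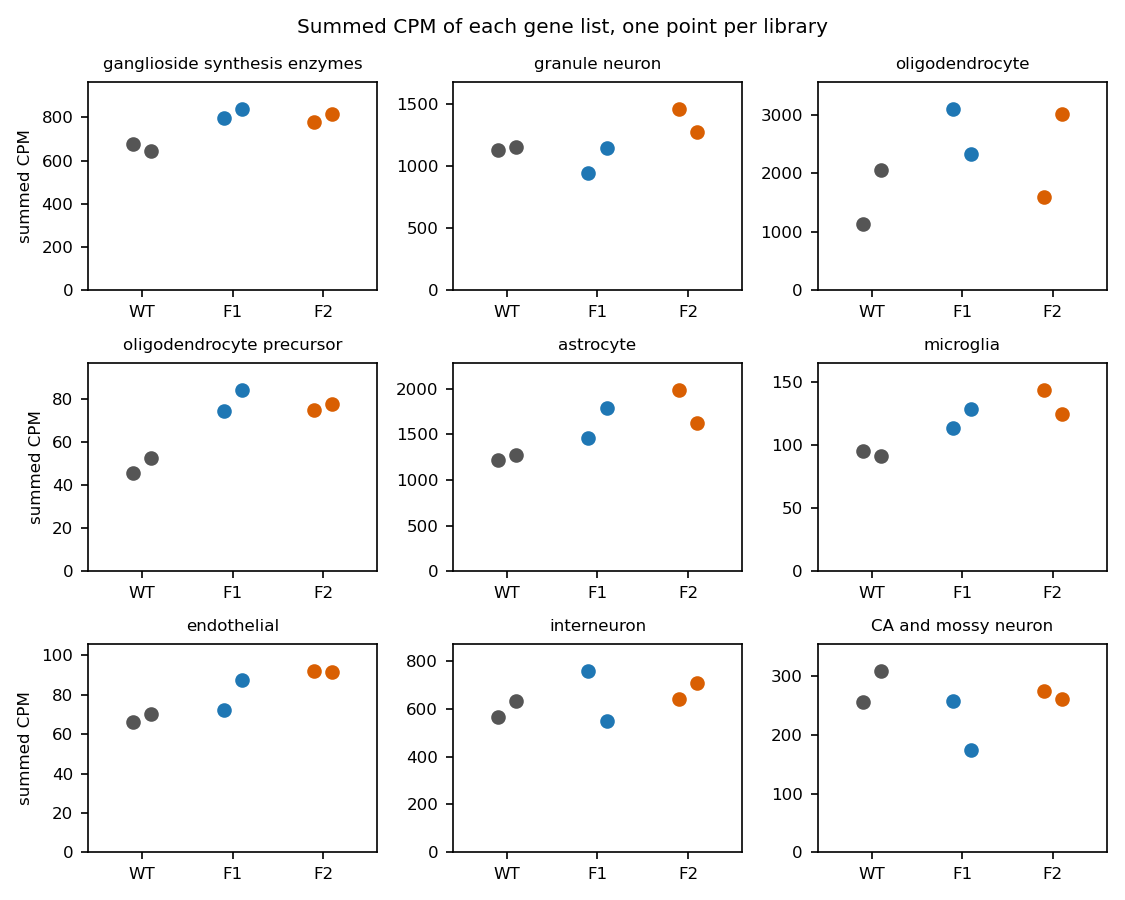
Summed CPM of the 10 enzyme genes and of each marker list, 1 point per library. The enzyme sum is 674 and 644 in WT, 798 and 839 in F1, and 777 and 816 in F2, and the precursor, astrocyte, microglia and endothelial sums also lie above WT in every F1 and F2 library.

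None of the 3 genes of the first steps passed the threshold in F1 or F2, though Ugcg and B4galt6 were above WT in every F1 and F2 library. Ugcg was at 72.2 and 83.3 CPM in WT, 100.4 and 92.9 in F1, and 95.7 and 94.6 in F2. All F1 and F2 libraries were above WT, while the WT libraries themselves were apart. The log2 fold change of Ugcg was 0.31 in F1 (standard error 0.12, edgeR q = 0.05004) and 0.29 in F2 (standard error 0.12, edgeR q = 0.0734), neither past the threshold. B4galt6, the more abundant of the lactosylceramide synthase genes, was at 199 and 204 CPM in WT, 233 and 243 in F1, and 244 and 246 in F2. Its replicates were close and its groups did not overlap, with log2 fold changes of 0.24 and 0.28 (edgeR q = 0.109 and 0.0551). B4galt5 was at 63.5 and 58.5 CPM in WT, 61.2 and 68.2 in F1, and 72.7 and 70.5 in F2. F1 overlapped WT and F2 did not, and the log2 fold changes of B4galt5 were 0.08 and 0.23 (edgeR q = 0.689 and 0.167). Per kb of exon, B4galt5 reached between 0.353 and 0.431 of the level of B4galt6 in the 6 libraries.

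St3gal5, GM3 synthase, was at 131 and 116 CPM in WT, 146 and 154 in F1, and 129 and 149 in F2. Both F1 libraries were above WT, and F2 replicate 1 lay between the WT libraries. Its log2 fold change was 0.28 in F1 (95% interval 0.03 to 0.52, edgeR q = 0.101) and 0.17 in F2 (95% interval -0.07 to 0.42, edgeR q = 0.358). Neither fold change passed the threshold.

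**Figure D4:**
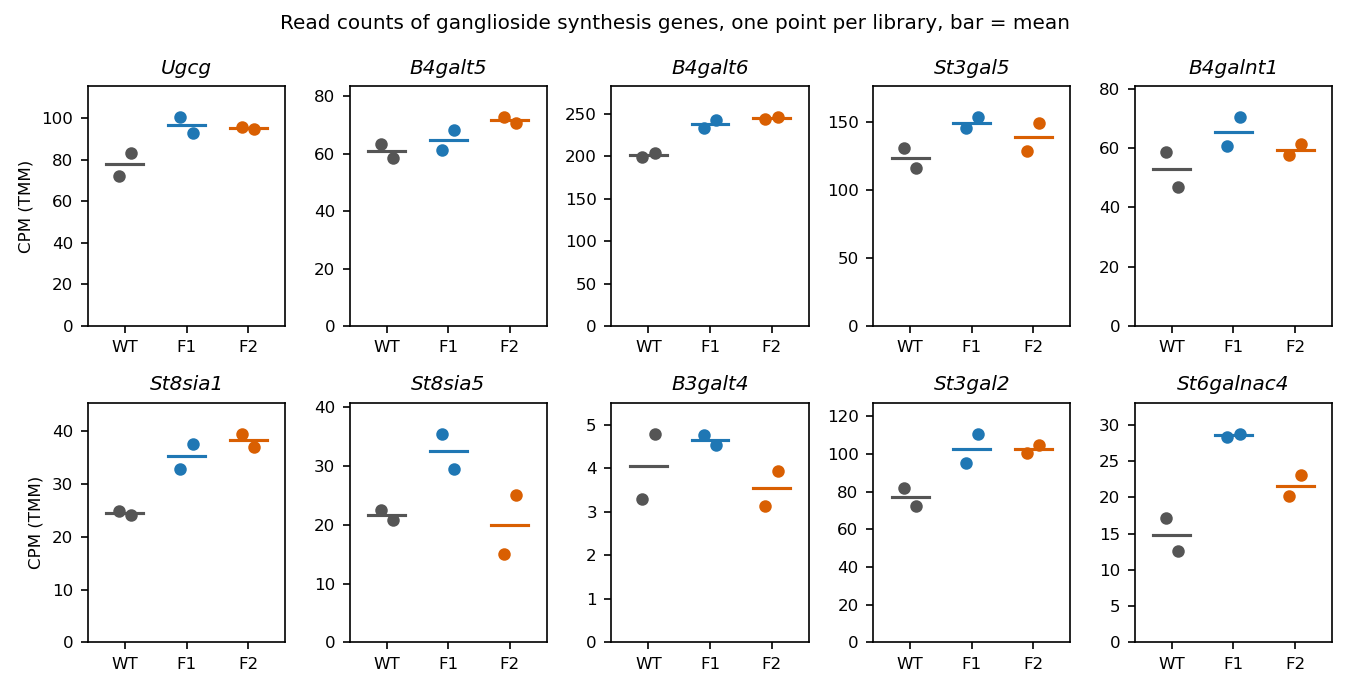
CPM of each gene, 1 point per library and a bar at the group mean, with axes that start at 0. St8sia1 and St6galnac4 in F1 and F2 lie above both WT libraries, and the F2 libraries of St8sia5 are at 15.07 and 25.02 CPM on either side of WT.

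St8sia1, GD3 synthase, was higher in both generations. It lies on mouse chromosome 6 from 142770065 to 142912972 (mm9, minus strand, protein-coding). St8sia1 was at 24.9 and 24.1 CPM in WT, 32.9 and 37.5 in F1, and 39.5 and 37.0 in F2. The WT libraries nearly coincided and all F1 and F2 libraries were above them. The fold changes were 1.44 in F1 (edgeR q = 0.00184) and 1.56 in F2 (edgeR q = 7.96e-05). The difference between F2 and F1 had a log2 value of 0.12 (95% interval -0.15 to 0.39, edgeR q = 0.959). By edgeR's quasi-likelihood test the adjusted p was 0.0106 in F1 and 0.00403 in F2, so that the call in F1 was lost and that in F2 was not. The call in F1 was also lost without WT replicate 1, WT replicate 2 or F1 replicate 2 (edgeR q = 0.0243, 0.0343 and 0.0533), and that in F2 without F2 replicate 1 (edgeR q = 0.0186). The study also lists St8sia1 and St6galnac4 among the genes it drew from these same libraries, so their direction is not independent evidence.

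Ratios within a library do not depend on the scaling between libraries. The ratio of St8sia1 to B4galnt1, the enzymes at the fork after GM3, was 0.112 and 0.136 in WT, 0.143 and 0.141 in F1, and 0.181 and 0.159 in F2, in reads per kb of exon. All F1 and F2 libraries were above WT, and F2 was above F1. The ratio of St8sia1 to St3gal5 was 0.0504 and 0.0553 in WT, 0.0602 and 0.0650 in F1, and 0.0815 and 0.0659 in F2. The ratio of B4galnt1 to St3gal5 lay between 0.407 and 0.462 in the 6 libraries, with overlapping groups. These ratios are given as a description, without a test. Exons of B4galnt1 overlap those of Slc26a10 on the opposite strand, which had fewer reads in F1 and F2 than in WT. The part of this overlap in the ratios with B4galnt1 was not tested. The genes whose log2 CPM over the 6 libraries, centred on the mean, was closest to that of St8sia1 were Rhou and Rab31, which encode small GTPases, and 1700020O03Rik. Their root mean square distances were 0.022 (Rhou), 0.043 (Rab31) and 0.037 (1700020O03Rik), out of 13678 genes averaging 50 counts or more. In all, 187 genes lay within a distance of 0.1.

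B4galnt1, which makes GM2 and GD2, was at 58.8 and 46.9 CPM in WT, 60.6 and 70.4 in F1, and 57.7 and 61.3 in F2. F1 was above WT by little, F2 overlapped it, and the log2 fold changes were 0.31 and 0.17 (edgeR q = 0.0974 and 0.426). On the opposite strand, exons of Slc26a10 cover 29.4% of the exon bases of B4galnt1. Slc26a10 had 1172 and 844 reads in WT, 267 and 251 in F1, and 219 and 314 in F2. Whether reads were counted by strand is not given in the sources used here, so reads of this pair may be lost or not told apart. B3galt4, which makes GM1 and GD1b, had the fewest reads of the 10 genes, between 84 and 144 per library. It was at 3.29 and 4.79 CPM in WT, 4.75 and 4.53 in F1, and 3.14 and 3.94 in F2, and both F1 and F2 overlapped WT. The log2 fold changes of B3galt4 were 0.21 (95% interval -0.28 to 0.70) in F1 and -0.19 (95% interval -0.69 to 0.32) in F2. Leaving out WT replicate 1 turned the F1 value to -0.04, and leaving out WT replicate 2 turned the F2 value to 0.11.

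St3gal2, which adds the terminal sialic acid of GD1a and GT1b, was at 82.2 and 72.4 CPM in WT, 95.1 and 110.8 in F1, and 100.7 and 104.7 in F2. All F1 and F2 libraries were above WT. Its log2 fold change was 0.41 in F1 (standard error 0.13, edgeR q = 0.00971) and 0.41 in F2 (standard error 0.13, edgeR q = 0.0109), on either side of the threshold though the values were nearly equal. Between F2 and F1 the log2 difference was -0.0036 (95% interval -0.25 to 0.24). By edgeR's quasi-likelihood test the adjusted p was 0.0255 in F1. The F1 call remained only when F1 replicate 1 was left out (edgeR q = 0.00287), and was lost without WT replicate 1, WT replicate 2, F1 replicate 2, F2 replicate 1 or F2 replicate 2 (0.0181, 0.153, 0.171, 0.0218 and 0.0190). Without F1 replicate 1 or F1 replicate 2, St3gal2 passed in F2 (edgeR q = 0.00435 and 0.00467).

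St6galnac4, an alpha-2,6-sialyltransferase, had the largest difference of the 10 genes in F1. It lies on chromosome 2 from 32442615 to 32455218 (mm9, plus strand, protein-coding). St6galnac4 was at 17.1 and 12.6 CPM in WT, 28.3 and 28.8 in F1, and 20.2 and 23.0 in F2. The F1 libraries coincided, the F2 libraries lay between WT and F1, and the WT libraries were apart. The log2 fold change was 0.94 in F1 (standard error 0.17, edgeR q = 1.62e-06), a 1.92-fold level, and 0.54 in F2 (standard error 0.17, edgeR q = 0.0136). The call in F1 held by the quasi-likelihood test (edgeR q = 0.00253) and with each library left out, with log2 fold changes from 0.75 to 1.18. In F2 it passed without WT replicate 1, F1 replicate 1 or F1 replicate 2 (edgeR q = 0.00322, 0.00993 and 0.00908), and without WT replicate 1 the log2 fold change was 0.78. Between F2 and F1 the log2 difference was -0.40 (95% interval -0.73 to -0.07, edgeR q = 0.377), so F2 was not shown to differ from F1.

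St8sia5, which adds the last sialic acid of GT1a and GQ1b, was the gene whose F1 and F2 values were furthest apart. It was at 22.5 and 20.8 CPM in WT, 35.5 and 29.5 in F1, and 15.07 and 25.02 in F2. Both F1 libraries were above WT, and the F2 libraries lay on either side of it. The log2 fold changes were 0.59 in F1 (standard error 0.20, edgeR q = 0.0259) and -0.11 in F2 (standard error 0.21, edgeR q = 0.768). F2 differed from F1 by a log2 value of -0.70 (95% interval -1.10 to -0.29, edgeR q = 0.0541). This difference rested on F2 replicate 1: it was -1.11 without F2 replicate 2 (edgeR q = 9.25e-05) and -0.37 without F2 replicate 1 (edgeR q = 1). Without F2 replicate 1 the log2 fold change of F2 against WT turned to 0.21. In F1, St8sia5 passed without F2 replicate 1 or F2 replicate 2 (edgeR q = 0.00367 and 0.00377). F2 replicate 1 also had the lower oligodendrocyte sum (1604 against 3013 CPM) and the higher granule sum (1464 against 1276 CPM) of the F2 libraries, whose part in the result was not tested. Exons of Gm7276, with 9 to 30 reads per library, overlap 18% of the exon bases of St8sia5 on the opposite strand.

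The enzymes were set beside 49 other genes in 6 lists. These were other sialyltransferases, competing branches, CMP-sialic acid supply, UDP-sugar supply, lipid transfer and ganglioside breakdown. Some of the genes act on other glycans or lipids, such as St6gal1 and St6galnac2, so the counts are not particular to gangliosides. Of the 49, 48 were tested and St6galnac1, with 0 to 4 reads per library, was not. In F1, 3 of the 48 rose and 2 fell at q under 0.01, and in F2, 2 rose and 1 fell. Taken in either direction, both shares were below those over all tested genes, of which 12.3% passed in F1 and 12% in F2. Rises made up 3.77% of all tested genes in F1 and 3.86% in F2. The calls among the 48 are too few to be read as a difference from any of these shares. At q under 0.05, 9 of the 48 rose and 3 fell in F1, and 5 rose and 3 fell in F2. Of all tested genes, 8.08% and 8.21% rose at that threshold. Their median log2 fold change was 0.20 in F1 and 0.14 in F2. Among the 15 other sialyltransferases, St6gal1, which caps N-glycans, rose and St6galnac2, which acts on O-glycans, fell in F1, and 0 passed in F2 by the exact test at q under 0.01. At an unadjusted p under 0.05 by the exact test, 7 of the 14 tested passed in F1 and 3 in F2, against 32.6% and 32.4% of all tested genes. At q under 0.01, the quasi-likelihood test and DESeq2 each called 2 in F1. In F2 the quasi-likelihood test called 0 and DESeq2 called 1. St6gal1 was at 7.001 and 8.80 CPM in WT, 15.6 and 15.1 in F1, and 13.5 and 10.3 in F2, with log2 fold changes of 0.96 (edgeR q = 4.00e-05) and 0.60 (edgeR q = 0.0205). St6galnac2 was at 6.06 and 5.70 CPM in WT, 2.41 and 2.69 in F1, and 4.22 and 4.27 in F2, with log2 fold changes of -1.21 (edgeR q = 2.78e-06) and -0.47 (edgeR q = 0.110). The groups of St6galnac2 did not overlap, with F2 between WT and F1, and neither gene was shown to differ between F2 and F1 (adjusted p = 0.624 for St6gal1 and 0.0848 for St6galnac2 by edgeR).

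Among the 6 genes that supply CMP-sialic acid, the donor of all sialyltransferases, Cmas rose in F1 and Cmah fell in both. Cmas, which activates sialic acid, was at 70.9 and 64.5 CPM in WT, 95.2 and 92.8 in F1, and 69.8 and 81.7 in F2, so that F1 was above WT and F2 overlapped it. Its log2 fold changes were 0.47 (edgeR q = 0.00170) and 0.16 (edgeR q = 0.385), and the F1 call was lost by the quasi-likelihood test (edgeR q = 0.0132). Cmah, which converts the acetyl form of CMP-sialic acid to the glycolyl form, was at 18.9 and 18.7 CPM in WT, 12.7 and 13.2 in F1, and 11.9 and 11.0 in F2. All F1 and F2 libraries were below WT, with log2 fold changes of -0.53 (edgeR q = 0.00708) and -0.71 (edgeR q = 0.000224). By the quasi-likelihood test the Cmah call held in F2 (edgeR q = 0.00565) and not in F1 (edgeR q = 0.0194). Of the 7 genes of competing branches, the 7 of UDP-sugar supply and the 3 of lipid transfer, 0 passed in F1 or F2 by the exact or quasi-likelihood test of edgeR or by DESeq2. At an unadjusted p under 0.05 by the exact test, 6 of these 17 genes passed in F1 and 6 in F2, against 32.6% and 32.4% of all tested genes. Of the 11 genes of ganglioside breakdown, 1 rose in F1 and 2 in F2, where 3.77% and 3.86% of all tested genes rose. Among them Gm2a, the activator protein of GM2 breakdown, was at 39.1 and 44.8 CPM in WT, 54.5 and 55.8 in F1, and 57.1 and 54.5 in F2, with a log2 fold change of 0.40 in F1 (edgeR q = 0.0112) and 0.41 in F2 (edgeR q = 0.00824). The F2 call of Gm2a was lost by the quasi-likelihood test (edgeR q = 0.0229).

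**Figure D5:**
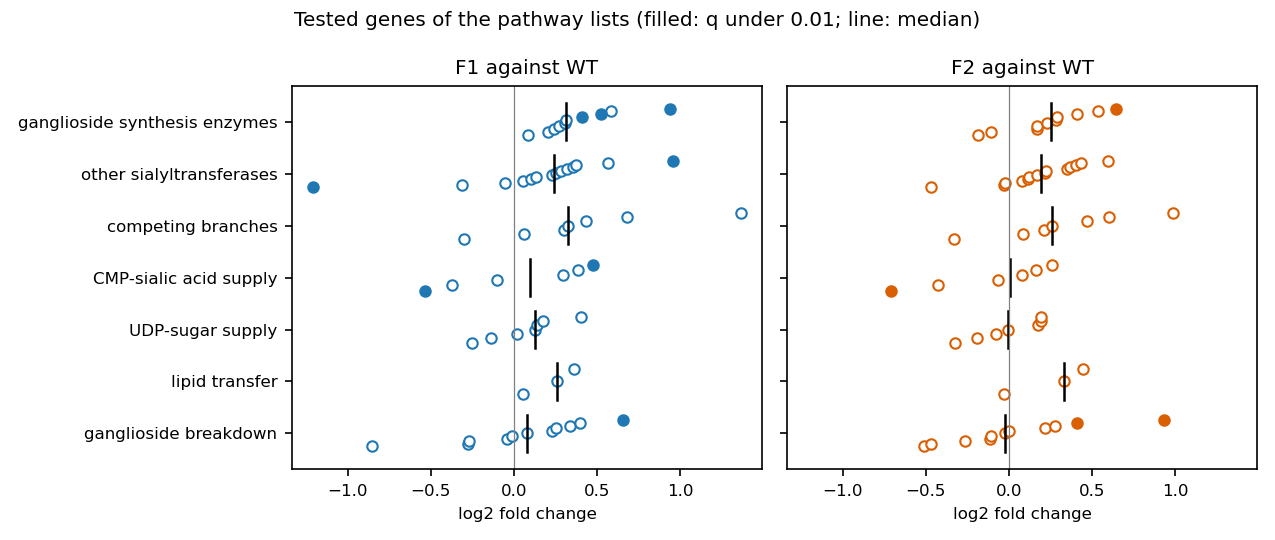
Log2 fold change against WT of each tested gene in the enzyme list and the 6 other lists, for F1 (left) and F2 (right), with filled points at q under 0.01 and a line at the median of a list. The median of the enzymes is 0.31 in F1 and 0.26 in F2, and that of ganglioside breakdown is 0.08 and -0.03.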

How the data were processed

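Single-end 50 bp reads were mapped by the authors to mm9 with TopHat (the labels name TopHat2 2.0.2, and the methods a later version) without new junctions. They deposited raw counts per gene symbol from HTSeq in intersection-strict mode. Reads on no gene, on several places or ambiguous, between 35.3% and 46.6% of each file, were left out. Counted reads were 26358165 to 33727936 per library, with 2 libraries per group. Libraries were grouped by their labels. Counts were filtered (filterByExpr), TMM-scaled and tested in edgeR 4.0.16 by its exact test (R 4.3.3, common then tagwise dispersion over all groups, coefficient of variation 10.6%), with Benjamini-Hochberg adjustment over 17421 genes and a threshold of 0.01 (the study's results use this value and its methods 0.05). Standard errors and 95% intervals (1.96 standard errors) follow from the counts and the tagwise dispersion. The fits were tested on simulated data. Exon lengths are unions of exons in GENCODE M1 (mm9), and promoters are from RefSeq. Replicates were no duplicates (chi-square per degree of freedom 19.2 to 24.9). The named genes are the 10 enzymes, the other pathway genes past the threshold in F1 or F2, and the 3 genes closest in pattern to an enzyme past it in both. The enzymes and lists were chosen with earlier results of these data known, and 1 gene the rule covers is not reported here by name. Alternatives were the quasi-likelihood test, this and the likelihood-ratio test with a replicate block, DESeq2 1.42.0, RLE scaling, no filter, leaving out each library and a threshold of 0.05, and a crossed block was added after seeing the data. Bisulfite samples were not analysed here. Plots were made with Python 3.11.15 and matplotlib 3.10.9.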

Additional observations from a re-analysis of the deposited data

How the results depend on the processing

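With 2 libraries per group, the calls near the threshold depended on the test and on single libraries. The quasi-likelihood test gave 1 enzyme in F1 and 1029, 997 and 2 genes over all in F1, F2 and F2 against F1, with 2 other pathway genes in F1. The same test with the replicate number as a replicate block gave 1 enzyme in F1, 848, 758 and 9 genes over all, and 2 and 1 other pathway genes in F1 and F2. A likelihood-ratio test with this block gave 2 enzymes in F1 and 1 in F2. The numbers did not pair the libraries (correlation of replicate differences over genes -0.027 for WT and F1, -0.083 for WT and F2, -0.18 for F1 and F2). Swapping the numbers of the F2 libraries in the block, a choice made after these correlations were seen, gave 3 enzymes in F2, 1 in F2 against F1 and 233 genes over all there, and 8 and 6 other pathway genes. DESeq2 and RLE scaling each gave 2 enzymes in F2. At a threshold of 0.05 there were 3 enzymes in F2, 3623, 3606 and 230 genes over all, and 12 and 8 other pathway genes. Leaving out each library gave 1 to 3 enzymes in F1, 0 to 3 in F2 and 0 to 1 in F2 against F1, 988 to 2043, 703 to 2585 and 52 to 223 genes over all, and 2 to 4 and 1 to 5 other pathway genes. The lowest counts over all genes came without WT replicate 1 in F1 and without F2 replicate 1 in F2 and in F2 against F1, and the 1 enzyme in F2 against F1 (St8sia5) came without F2 replicate 2. With each library left out, the direction turned for B3galt4 in F1 (-0.042 without WT replicate 1, to 0.50) and F2 (-0.43, to 0.11 without WT replicate 2), and for St8sia5 in F2 (-0.52, to 0.21 without F2 replicate 1). In F2 against F1 it turned for Ugcg (-0.076, to 0.033 without F1 replicate 1), St3gal5 (-0.21, to 0.0022 without F2 replicate 1) and St3gal2 (-0.11, to 0.11 without F1 replicate 2 and 0.03 without F2 replicate 1). Of 420 values of single enzymes under alternatives, 381 kept their direction and side of the threshold. The causes were not tested, apart from fewer libraries when 1 was left out.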
